A study of Rattus norvegicus with 2 samples.

Results

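The genes described here control the division, the fusion and the movement of mitochondria: Dnm1l, Fis1 and Mul1 (fission and its regulation), Mfn1, Mfn2, Opa1 and Stoml2 (fusion and the inner membrane), and Trak1, Trak2 and Rhot1 (transport). They were taken by symbol from the genes listed in either of 2 mRNA libraries, and were chosen by their known part in mitochondria together with their ratio between the libraries, with and without tags ending in a long run of A. The libraries together listed 9894 genes. Both libraries came from somatosensory cortex of Sprague-Dawley rat embryos at E16, which was dissociated, electroporated and cultured for 48 h. The control library was made from neurons electroporated with a control plasmid, in the study a scrambled siRNA in a pSuper vector. The RNAi library was made from neurons electroporated with a plasmid against PIWIL1, a member of the Piwi family of small RNA-binding proteins, and the labels do not say which siRNA it carried. No sorting of the electroporated cells is described for these libraries, so a library may also hold RNA of cells without plasmid.

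Mitochondria form a network that is cut by fission and joined by fusion. Fission is carried out by the cytosolic dynamin-related GTPase Drp1, the product of Dnm1l, which is recruited by adaptors in the outer membrane. Fusion needs mitofusins in the outer membrane and Opa1 in the inner membrane. In neurons, mitochondria are carried along microtubules by kinesin and dynein, to which they are coupled by the Miro GTPases (Rhot1 is Miro1) and the Trak adaptors. A growing axon depends on this transport, because its tip lies far from the cell body.

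The libraries are digital gene expression libraries, in which a transcript is represented by tags of 21 bases that begin at a CATG site. The sites of a transcript are numbered from its 3′ end. A gene's level is the summed copy number of its tags, also given as TPM, the copies scaled to the clean tags of the library and not to length. Where genes are ordered by copies below, this is an order of depth and not a ranking of transcript levels. The control library held 3386865 clean tags and the RNAi library 3303360, of which 57.5% and 56.5% were assigned to genes. No tag with fewer than 2 copies was listed, and 3 copies corresponded to 0.886 and 0.908 TPM. There was 1 library per condition, so the differences below have no replicate check. The intervals given are 95% exact intervals, which cover counting error only. No value for PIWIL1 was analysed here, so its knockdown in these libraries was not checked. The paper reports that it tested how well its siRNAs lowered PIWIL1. Of 8 markers of cortical neurons, 7 were listed in each library. Together they had 4256 TPM in the control library and 3812 TPM in the RNAi library. Without tags ending in 8 or more A the sums were 3718 and 2963 TPM. Stmn2 (2210 and 1719 TPM), Tubb3, Neurod6 and Map2 were lower in the RNAi library. Dcx (395 and 413 TPM) and Tbr1 (25.1 and 25.4 TPM) were slightly higher. Gap43 was higher with all tags (788 and 1072 TPM) but lower (251 and 223 TPM) without those ending in 8 or more A. Markers of other cells in the culture included 4 of 5 progenitor markers (962 and 1264 TPM), 4 of 4 fibroblast markers (434 and 416 TPM) and 3 of 4 astrocyte markers (86.5 and 76.6 TPM). Most of the astrocyte sum was Slc1a3 (68.2 and 58.4 TPM). Gfap was at 10.9 and 12.1 TPM and Aldh1l1 at 7.38 and 6.05 TPM. In the progenitor list Vim was higher in the RNAi library (790 and 1127 TPM), whereas Sox2 (94.5 and 78.7 TPM), Nes (53.4 and 37.8 TPM) and Pax6 (24.5 and 20.6 TPM) were lower and Eomes was not listed. The microglial list stood at 834 and 2207 TPM, nearly all of it on tags of Cd68 that end in a long run of A, and at 24.5 and 26.6 TPM without such tags. Cx3cr1 and the 3 endothelial markers were not listed. The part of these cells in the results below was not tested. In such a culture, fewer cells of a type and less RNA per cell cannot be told apart.

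The study called genes by a log2 ratio of 0.58 or more in either direction together with a limit on the false discovery rate. Only the fold was applied here. Past it, Mfn1 and Stoml2 were lower in the RNAi library and Dnm1l, Mul1 and Trak2 were higher. These 2 lower and 3 higher genes of 10 stand beside 12.3% lower and 5.86% higher among the 6010 genes with 50 or more copies over the 2 libraries, a depth that each of the 10 reached. Among all 9894 listed genes, with many at low depth, 22.5% were lower and 12.9% higher. In these shares, and in the counts below, a gene listed in 1 library only was counted as past the fold, though it has no ratio. Of the 9894 genes, 8899 were listed in both libraries. The genes were chosen with these ratios known, so the counts are a description and no test is given. The log2 ratio of RNAi over control ran from -1.74 (Mfn1) to 1.07 (Dnm1l), with a median of -0.06, against a median of -0.07 and quartiles of -0.36 and 0.19 for genes with 50 or more copies. The interval of the ratio included 0 for 4 of the 10 genes, Mfn2, Opa1, Trak1 and Rhot1.

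**Figure D1:**
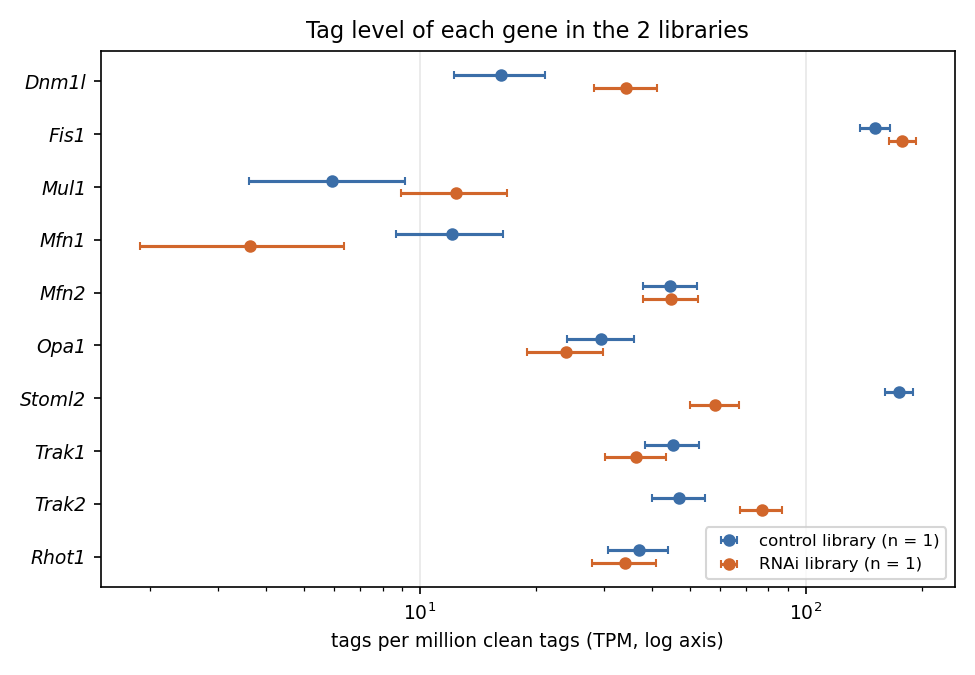
TPM (log axis) of each of the 10 genes in the control library (blue) and the RNAi library (orange), 1 library each, with 95% exact Poisson intervals that cover counting error only. The intervals of the libraries lie apart for Dnm1l, Mfn1, Stoml2 and Trak2.

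**Figure D2:**
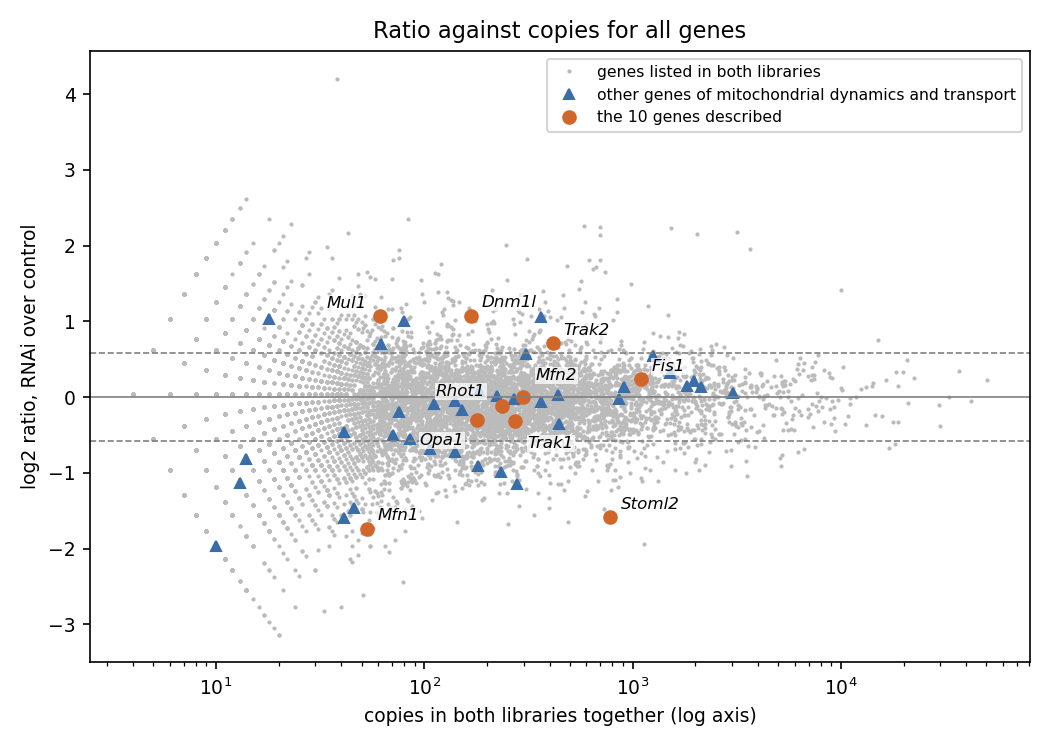
log2 ratio of RNAi over control against copies in both libraries together (log axis) for the 8899 genes listed in both libraries (grey), with the 10 genes in orange and the other mitochondrial dynamics and transport genes in blue. Dashed lines mark a log2 ratio of 0.58 in either direction. Stoml2 lies far below genes of similar depth, while Mfn1 and Mul1 lie where the spread of all genes widens.

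The ratio of a tag went with the bases at its end in these libraries, so each gene was also read tag by tag. The median log2 ratio was -0.08 for all 16021 tags with 20 or more copies over the 2 libraries. Tags ending in TG had a median of -0.67 (quartiles -1.30 and -0.02, 866 tags), and those ending in GG a median of -0.55. Tags ending in 9 A had a median of 0.92 (quartiles 0.75 and 1.14, 33 tags). Of the 26 tags of the 10 genes with 20 or more copies, 14 lay within the quartiles of all tags with the same end, 7 above and 5 below. A corrected ratio is given for each gene, in which the median of each tag end, relative to the median of all tags, was taken out of its tags. It removes this shift and leaves the spread of such tags around it. By the corrected ratio, 2 of the 10 genes were lower past the fold (Mfn1 and Stoml2) and 1 was higher (Mul1), beside 9.63% lower and 4.23% higher among the 6010 genes. When the tags with 8 or more A at the end were dropped instead, Mul1 and Trak2 were higher, beside 4.39% of the 5948 genes that then had 50 or more copies, and Mfn1 and Stoml2 lower, beside 12.7%. Dnm1l no longer reached that depth.

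**Figure D3:**
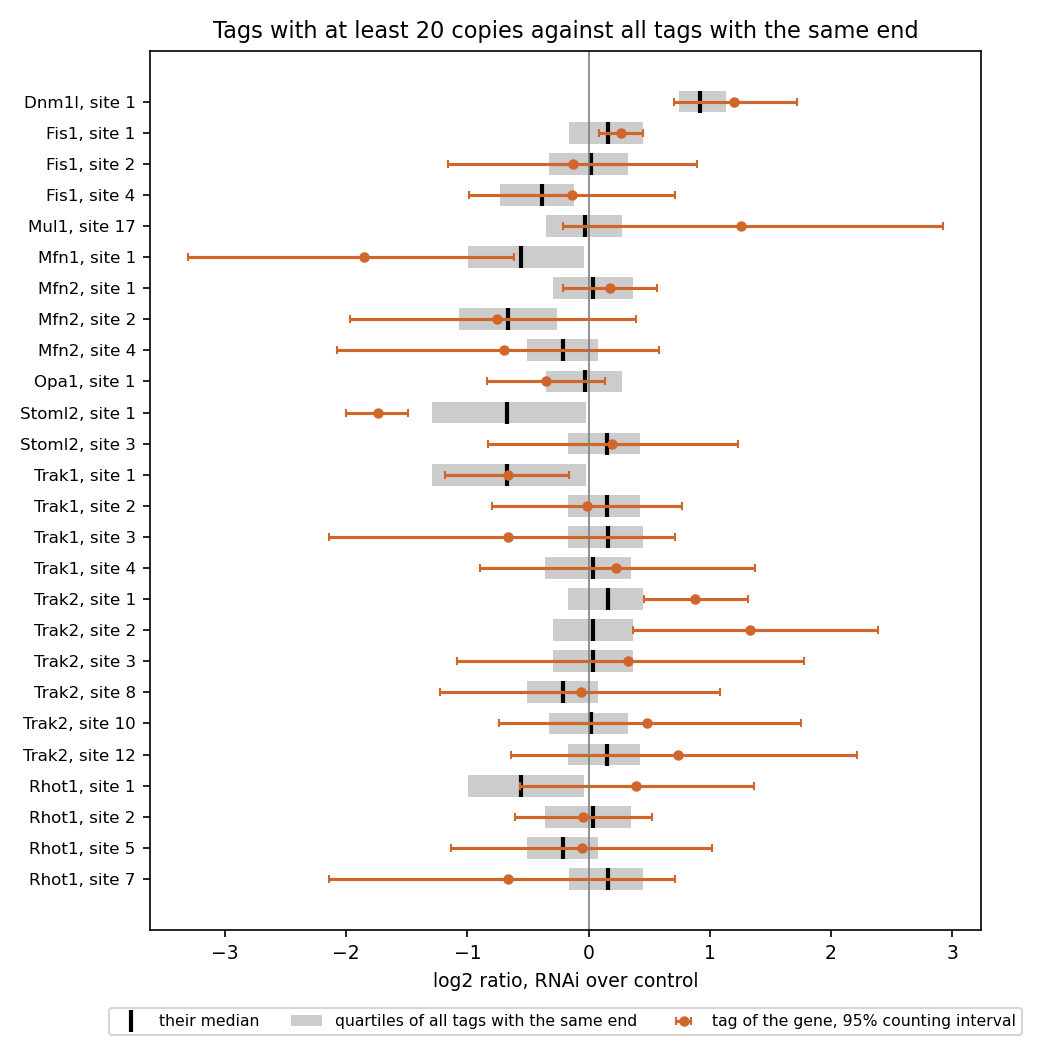
log2 ratio of each of the 26 tags of the 10 genes with 20 or more copies over the 2 libraries (orange, with 95% counting intervals), named by gene and by CATG site from the 3′ end. Grey bars are the quartiles and black ticks the medians of all tags with the same end. The most copied Dnm1l tag, at 1.20, lies just above the upper quartile of its end (1.14), and the Stoml2 tag of site 1 lies below the lower quartile of its end.

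Among the fission genes, Dnm1l was higher in the RNAi library, but almost only on tags that end in a run of A. It had 55 copies (16.2 TPM) in the control library and 113 copies (34.2 TPM) in the RNAi library, a log2 ratio of 1.07 (95% interval 0.60 to 1.57). Its copies lay on 4 tags, which are shown because they decide what the ratio measures, with the last bases or the run of A in capitals.
Dnm1l, site 1, most copied: catgttaaattcAAAAAAAAA
Dnm1l, site 1, 2 mismatches to the first: catgtttaatacAAAAAAAAA
Dnm1l, site 2: catgctgaaggcattacaaGG
Dnm1l, site 4: catgtgaaagatactcttcAG
The first tag went from 49 to 110 copies and the second had 3 copies in the RNAi library only. The tags of sites 2 and 4 had 3 copies each in the control library and were not listed in the RNAi library. Tags ending in 8 or more A thus held 89.1% of the Dnm1l copies in the control library (95% exact binomial interval 77.8% to 95.9%) and 100% in the RNAi library (96.8% to 100%). Without them, Dnm1l had 6 copies in the control library and 0 in the RNAi library. With 3 copies taken as the floor of the RNAi library this was 1.95-fold lower, a value that does not cover counting error. With the median of the tag end taken out, the log2 ratio of Dnm1l was -0.024. None of the other 9 genes had a tag ending in 8 or more A, so their ratios are the same with and without such tags. Over all genes, 171 (1.73%) had such a tag, and 56 had more than 90% of their copies on them. A tag of this kind holds few bases besides CATG and the run of A, and its assignment to Dnm1l was taken as deposited.

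Fis1, a tail-anchored outer-membrane protein that takes part in fission, had the most copies of the 10 genes over the 2 libraries, with 512 copies (151 TPM) in the control library and 588 copies (178 TPM) in the RNAi library. Its log2 ratio was 0.24 (95% interval 0.06 to 0.41), short of the fold. The ratio rests on its site 1 tag, which held 91.4% of the copies.
Fis1, site 1: catgctttgcaatgagtgtAA
This tag went from 462 to 543 copies, a log2 ratio of 0.27 against a median of 0.16 for tags ending in AA. The rest of its tags had 50 copies in the control library and 45 in the RNAi library, a log2 ratio of -0.12 (95% interval -0.73 to 0.49). With the tag end taken out the gene's log2 ratio was -0.02, so the difference between the libraries was about that of other tags with this end.

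Mul1, an E3 ligase of the outer membrane whose substrates include mitofusin 2, had 20 copies (5.91 TPM) in the control library and 41 copies (12.4 TPM) in the RNAi library. The log2 ratio was 1.07 (95% interval 0.27 to 1.92), and 0.99 with the tag end taken out. The copies were spread thinly over 10 sites, from site 2 to site 18, with none at site 1. Of genes with 50 or more copies, 5.97% likewise had no copy at site 1. The most copied tag, at site 17, went from 6 to 14 copies.
Mul1, site 17: catgtgtgatggaggagacAC
Of the 10 tags, 4 were listed in both libraries and 6 in the RNAi library only, with 2 to 4 copies each. On the 4 shared tags alone the log2 ratio was 0.41, and with 1 copy put back for each tag that a library lacked it was 0.69. The limit of 2 copies for a listed tag falls on these tags, and its part in the ratio was not tested.

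Among the fusion genes, the mitofusins Mfn1 and Mfn2, GTPases that tether and fuse outer membranes, had unlike ratios. Mfn1 had 41 copies (12.1 TPM) in the control library and 12 copies (3.63 TPM) in the RNAi library, a log2 ratio of -1.74 (95% interval -2.80 to -0.78). Its 2 most copied tags were lower alike.
Mfn1, site 1: catgggcatcatagttgttGG
Mfn1, site 4: catggaaagatgtcttcacTT
The tag of site 1 went from 26 to 7 copies, a log2 ratio of -1.86 against a median of -0.55 for tags ending in GG. The tag of site 4 went from 11 to 3 copies, a log2 ratio of -1.84 against a median of -0.21 for tags ending in TT. The 95% interval of the site 4 tag, -4.32 to 0.08, included 0, while that of the site 1 tag was -3.31 to -0.61. Site 2 had 2 copies in each library. With the tag end taken out the log2 ratio of Mfn1 was -1.35, and with its most copied tag left out it was -1.55 (95% interval -3.36 to -0.02) on 15 and 5 copies.

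Mfn2, which also tethers mitochondria to the endoplasmic reticulum, had 151 copies (44.6 TPM) in the control library and 148 copies (44.8 TPM) in the RNAi library. Its log2 ratio was 0.01, with a 95% interval of -0.33 to 0.34. The site 1 tag, with 75.3% of the copies, went from 107 to 118 copies. The remaining tags went from 44 to 30 copies, a log2 ratio of -0.52 (95% interval -1.24 to 0.19). The sum over the gene thus joins a tag that was slightly higher with 4 shared tags that were each lower, none of them beyond its counting interval.

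Opa1, the GTPase that fuses inner membranes and shapes cristae, had 100 copies (29.5 TPM) in the control library and 79 copies (23.9 TPM) in the RNAi library. The log2 ratio was -0.30 (95% interval -0.75 to 0.14), so at this depth no difference could be told from 0. Its site 1 tag held 83.8% of the copies and went from 85 to 65. With the tag end taken out the log2 ratio was -0.37.

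Stoml2 (also known as SLP-2), an inner-membrane scaffold that binds cardiolipin and prohibitins and is needed for stress-induced fusion, had the most copies among the genes that were lower. It had 591 copies (174.5 TPM) in the control library and 192 copies (58.1 TPM) in the RNAi library, a log2 ratio of -1.59 (95% interval -1.83 to -1.35). The difference lay on its site 1 tag and not on its other sites.
Stoml2, site 1: catgtaataaactcaccagTG
Stoml2, site 2: catgggtgtctatggcgctCT
Stoml2, site 3: catgcagatgcaggtagagGC
The site 1 tag went from 562 to 164 copies, a log2 ratio of -1.74. The tag of site 2 went from 8 to 9 copies and that of site 3 from 17 to 19 copies. All tags other than the most copied one, including 2 variants of it with 1 mismatch and 2 copies each, had 29 copies in the control library and 28 in the RNAi library. Their log2 ratio was -0.015, with a 95% interval of -0.82 to 0.79 that does not reach the ratio of the site 1 tag. The site 1 tag ends in TG, and its ratio lay below the lower quartile of all tags with that end (-1.30). With the tag end taken out the log2 ratio of Stoml2 was -1.14. The part of the tag end in the difference between sites was not tested.

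**Figure D4:**
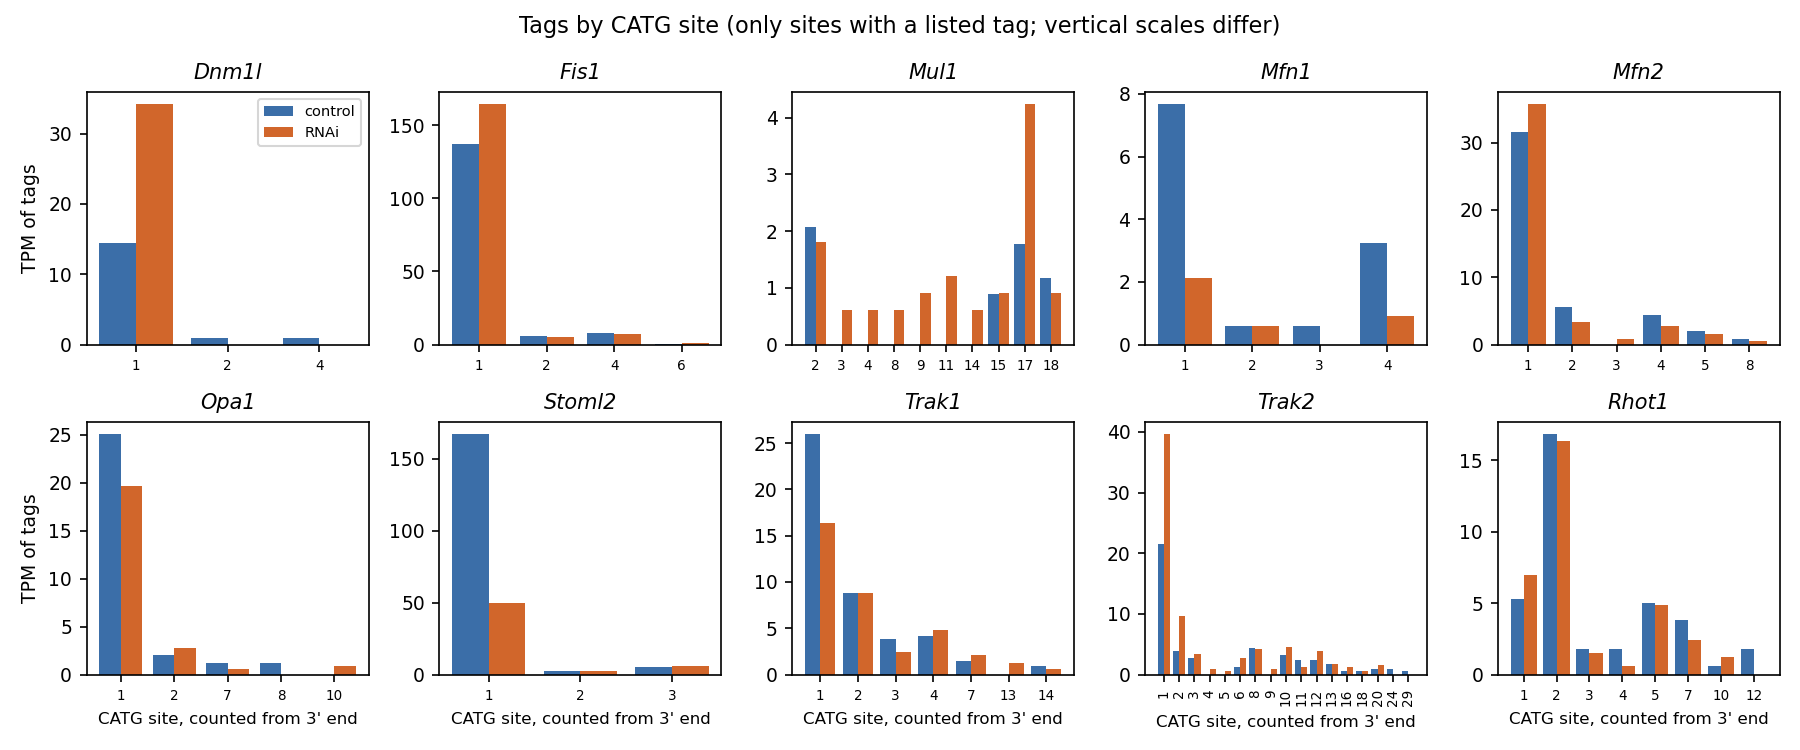
TPM of the tags of each gene by CATG site, counted from the 3′ end, in the control library (blue) and the RNAi library (orange). Only sites with a listed tag are drawn and vertical scales differ. The lower level of Stoml2 lies at site 1, where its tag went from 562 to 164 copies. The higher level of Trak2 lies mostly at sites 1 and 2, and Mul1 has no copy at site 1.

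Among the transport genes, Trak2 was higher in the RNAi library, mostly at its sites 1 and 2. Trak1 and Rhot1 were not past the fold. Trak2 had 159 copies (46.9 TPM) in the control library and 254 copies (76.9 TPM) in the RNAi library, a log2 ratio of 0.71 (95% interval 0.42 to 1.01). Its copies lay on 17 tags from site 1 to site 29. Of the 12 tags listed in both libraries, 8 had more copies in the RNAi library, 2 had equal copies and 2 had fewer. The interval lay above 0 only for the tags of sites 1 and 2. The 2 most copied tags are shown because they carry most of the difference.
Trak2, site 1: catggggtcctgggggctcCA
Trak2, site 2: catgcacaccagtccactgCC
The tag of site 1 went from 73 to 131 copies and that of site 2 from 13 to 32 copies, log2 ratios of 0.88 and 1.34. All tags with these ends had medians of 0.16 and 0.04. Without the site 1 tag, Trak2 still had 86 copies in the control library and 123 in the RNAi library, a log2 ratio of 0.55 (95% interval 0.14 to 0.97). With the tag end taken out the log2 ratio was 0.56, so under both settings it lay just short of the fold of 0.58.

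Trak1, the other adaptor, had 153 copies (45.2 TPM) in the control library and 120 copies (36.3 TPM) in the RNAi library. The log2 ratio was -0.31 (95% interval -0.67 to 0.04), and -0.14 with the tag end taken out. Its site 1 tag ends in TG like that of Stoml2, and it went from 88 to 54 copies.
Trak1, site 1: catgttcagaggggcctccTG
The log2 ratio of this tag, -0.67, was that of the median tag with this end, -0.67. The remaining tags of Trak1 went from 65 to 66 copies, a log2 ratio of 0.06 (95% interval -0.46 to 0.57).

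Rhot1 (Miro1), the calcium-binding GTPase that anchors the Trak adaptors to the outer membrane, had 125 copies (36.9 TPM) in the control library and 112 copies (33.9 TPM) in the RNAi library. The log2 ratio was -0.12 (95% interval -0.50 to 0.26), and -0.06 with the tag end taken out. Site 1 held 14.4% and 20.5% of its copies, whereas the median over genes with 50 or more copies was 61.0%. Its most copied tag, with 46.8% of the copies, was that of site 2, whose sequence runs into that of site 1, as the inner CATG in capitals shows.
Rhot1, site 2: catgtgtCATGaactgttcta
Rhot1, site 1: catgaactgttctatatctGG
The site 2 tag went from 57 to 54 copies and the site 1 tag from 18 to 23 copies. The last 14 bases of the first are the first 14 bases of the second. The CATG of site 1 thus lies within the site 2 tag.

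**Figure D5:**
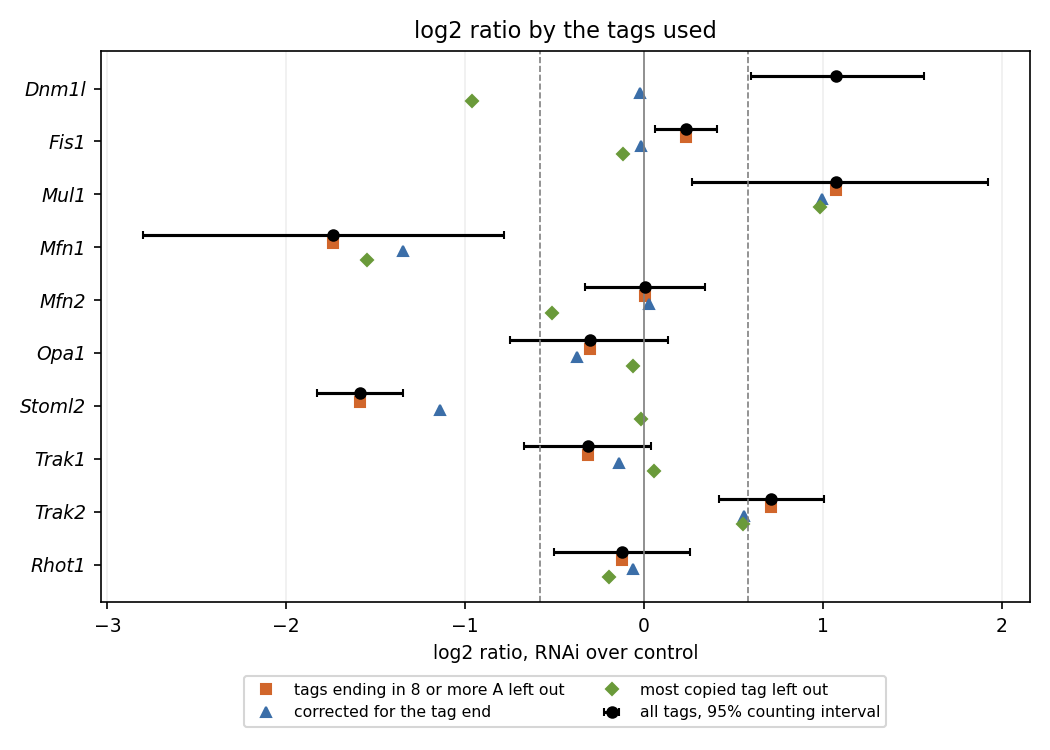
log2 ratio of RNAi over control for each gene from all tags (black, with 95% counting intervals), without tags ending in 8 or more A (orange squares), corrected for the tag end (blue triangles) and without the most copied tag (green diamonds). Dashed lines mark a log2 ratio of 0.58 in either direction. Dnm1l moves from 1.07 to -0.024 with the correction and has no orange square because no RNAi copy is left, Stoml2 moves to -0.015 without its most copied tag, and Mfn1 stays below the lower dashed line in every setting drawn.

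The tags of the 10 genes were also described by further features, most of them without a value over all genes. In Dnm1l the most copied tag ends in 9 A, so its share was not apart from the values by which genes were chosen. The 3566 copies lay on 71 tags, of which 23 were listed in 1 library only, none with more than 6 copies. The most copied tag lay at site 1 in 8 genes, the exceptions being Mul1 (site 17) and Rhot1 (site 2). It held from 32.8% of the copies in Mul1 to 94.6% in Dnm1l, against a median of 65.0% over genes with 50 or more copies. Of the 71 tags, 5 contain a second CATG, and 4 of these run into a listed tag of a nearer site, as in Rhot1. Another 4 tags differ from the most copied tag of their site by 1 or 2 mismatches and have 2 or 3 copies. A single tag held 91.4% of the copies of Fis1, 92.7% of Stoml2 and 94.6% of Dnm1l, and the ratio of such a gene is in effect that of the tag. The most copied tag also held most copies of Opa1 (83.8%), Mfn2 (75.3%), Mfn1 (62.3%) and Trak1 (52.0%).

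Other genes of mitochondrial dynamics and transport were read from a list of 43, of which 37 had a value. Of these 37, 11 were lower past the fold, 4 were higher and 22 lay within it, beside 22.5% lower and 12.9% higher among all listed genes. With 20 or more copies there were 32, of which 7 were lower and 3 higher, beside 15.8% and 7.17% of all genes of that depth. With 50 or more copies there were 29, of which 5 were lower and 3 higher, beside 12.3% and 5.86%. The median log2 ratio of the 36 listed in both libraries was -0.05. Kif5b had 8 copies in the control library and 0 in the RNAi library, and was counted as lower. Its interval reached up to a log2 ratio of -0.74. With 3 copies taken as its floor in the RNAi library, 2.60-fold lower, the median over the 37 was -0.06. That floor value does not cover counting error. The 5 most copied genes of the list lay within the fold. They were Mff, the main outer-membrane receptor of Drp1 (1513 and 1537 copies), Tomm20 of the import receptor complex (1028 and 1105), the prohibitins Phb2 (922 and 1044) and Phb (879 and 952), and Fez1, a kinesin adaptor (683 and 828).

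Among the lower genes of that list, Bnip3, a mitophagy receptor, had 193 copies in the control library and 85 in the RNAi library, a log2 ratio of -1.15. Its copies outside the most copied tag went from 62 to 29. The most copied tag ends in TG, and with the tag end taken out the log2 ratio of Bnip3 was -0.69. Gdap1, an outer-membrane protein linked to fission, went from 119 to 62 copies (-0.90), with 6 of its 7 tags lower. Chchd3, a subunit of the MICOS complex that holds cristae junctions, went from 157 to 77 copies (-0.99). As in Stoml2, this lay on its site 1 tag, a tag with the end GT that went from 133 to 49 copies, while its other tags went from 24 to 28 copies. Tags ending in GT had a median of -0.67, and with the tag end taken out the log2 ratio of Chchd3 was -0.56, short of the fold. The corrected ratios of the other lower genes named here stayed past it. Letm1, an inner-membrane ion exchanger, went from 31 to 10 copies and Opa3, an inner-membrane protein of optic atrophy, from 34 to 12 copies, log2 ratios of -1.60 and -1.47. The protease Yme1l1, which cleaves Opa1, went from 88 to 52 copies (-0.72), and Mtfp1, a regulator of fission, from 66 to 40 copies (-0.69). Of the 8 tags of Yme1l1, 4 were lower. Without its most copied tag its log2 ratio was -0.53, short of the fold.

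Among the higher genes, March5 (Marchf5), an outer-membrane E3 ligase that acts on Drp1 and mitofusins, went from 120 to 244 copies, a log2 ratio of 1.06. Its most copied tag, shown because it resembles that of Dnm1l, ends in 10 A.
March5, site 1: catgttgtttcAAAAAAAAAA
This tag went from 90 to 217 copies, a log2 ratio of 1.31 against a median of 1.16 for tags ending in 10 A. Without tags ending in 8 or more A, March5 had 30 copies in the control library and 22 in the RNAi library, a log2 ratio of -0.41. Mief1, an adaptor that recruits Drp1, went from 27 to 53 copies, a log2 ratio of 1.01, and none of its copies lay on tags ending in 8 or more A. Spg7, a subunit of an inner-membrane protease, went from 24 to 38 copies, a log2 ratio of 0.70 with 0 inside its interval. Rhot2 (Miro2), the paralogue of Rhot1, had 138 copies in the control library and 133 in the RNAi library, a log2 ratio of -0.02. Of the kinesin-1 heavy chains that pull mitochondria, Kif5a had 41 and 35 copies and Kif5c 58 and 53 copies, with 0 in the interval of both. Kif5b, the other kinesin-1 heavy chain, had 8 and 0 copies, as given above.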

How the data were processed

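The authors prepared digital gene expression libraries, assigned 21-base tags to RefSeq transcripts and deposited for each gene the tag count, a raw count equal to the sum of the copies of its tags. The deposited TPM is that count scaled to the clean tags of the library, without gene length. The program that assigned tags and its filters are not given in the sources used here. The submitters' processing notes name the build rn4, and no genomic positions are given. Clean tag totals were recovered from count and TPM. Symbols came from a RefSeq table of GRCr8 by accession (9337 of 9894 genes) and for 1 gene, Opa3, from its description.

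The log2 ratio is that of RNAi over control, with Clopper-Pearson 95% intervals. With 1 library per condition no test was run. The 10 genes and the lists were chosen with earlier results of these data known. Genes named are the 10, and of the list of 43 the 5 most copied and those past the fold with at least 20 copies. Kif5a, Kif5b, Kif5c and Rhot2 were named after their values were seen. Alike patterns were not sought, since over 2 libraries a pattern is 1 ratio. In the corrected ratio a tag's class was its last 2 bases or, from 3 A on, the length of its A run (13 or more as 1 class). A class median used tags of 20 or more copies, 0.5 added to each count, from alternate genes only, and its difference from the median of all such tags was taken out of the remaining genes. The interval and ratio were tested on simulated Poisson counts, without tag-end shifts or variation between replicate libraries. This checks the calculation only, since the interval assumes such counts. An order of levels per kilobase had been planned, but the files give no length. Scripts ran under Python 3.11.15 with SciPy 1.17.1, pandas 2.3.3, Matplotlib 3.10.9 and NumPy 2.4.6. Scaling factors came from DESeq2 1.42.0 and edgeR 4.0.16 under R 4.3.3.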

Additional observations from a re-analysis of the deposited data

How the results depend on the processing

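The log2 ratio of Dnm1l (1.07) was -0.024 with the tag end taken out and -0.96 without its most copied tag, on 6 and 3 copies. Without tags ending in 8 or more A, or in 5 or more A, it had no RNAi copy and no ratio. The log2 ratio of Stoml2 (-1.59) was -1.14 with the tag end taken out and -0.015 without its most copied tag. Those of Mfn1, Mul1, Trak2 and Opa1 stayed within their counting intervals under each alternative that gave a value. The range was -1.86 to -1.35 for Mfn1, 0.41 to 1.26 for Mul1 and 0.55 to 0.88 for Trak2. The other 4 did not: without the most copied tag the ratio was -0.52 for Mfn2, 0.058 for Trak1 and -0.12 for Fis1, Fis1 was at -0.016 with the tag end taken out, and Rhot1 was at 0.39 at site 1 alone. Trak1 was past the fold, at -0.67, on its most copied tag alone, which is its site 1. Of the 10 genes, 3 and not 2 were then lower past the fold. The same count held without tags ending in 8 or more A or in 5 or more A. There Dnm1l, with 6 and 0 copies and no ratio, was counted as lower. Of the 10 genes, 1 and not 3 was higher past the fold with the tag end taken out, and likewise without the most copied tag. Of the other mitochondrial genes, 11 were lower past the fold, but 7 with at least 10 copies in each library, 7 with at least 20 copies in both together, 6 at a log2 threshold of 1, 7 at site 1 alone and 5 with at least 50 copies. The 4 higher ones were 6 under TMM, under size factors and at site 1 alone. Library scaling by the total on genes, TMM or size factors moved the median of all genes by at most 0.09 and left each of the 10 genes on its side of the fold.

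The alternatives without the most copied tag, at site 1 alone, on tags listed in both libraries, and with at least 50 copies were chosen after seeing the data. Mul1 had no copy at site 1 and no value there. The order of levels was not run. No paired analysis was possible because each condition has 1 library.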
